A study of Homo sapiens with 8 samples.

Results

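The replication-dependent histone genes encode the bulk of the H1, H2A, H2B, H3 and H4 proteins that package newly copied DNA. They were taken here as the genes whose symbol on the array platform begins HIST1H, HIST2H, HIST3H or HIST4H, and are given under their current names where a gene table held one. With array rows annotated to 1 symbol, 43 such genes were found among 19426 genes in all. They comprised 6 genes of H1, 11 of H2A, 15 of H2B, 7 of H3 and 4 of H4. A further 29 histone symbols stood only on rows that list several symbols. Of the 43 genes, 35 kept at least 1 row that was brighter than the median row of the array and were tested: 6 of H1, 9 of H2A, 12 of H2B, 6 of H3 and 2 of H4. H2AC7, H2AC14, H2BC1, H2BC18, HIST1H2BI, H3C2, H4C6 and H4C13 kept none.

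The RNA came from NTera2/D1 cells and was hybridised to Affymetrix exon arrays. NTera2/D1 is a human embryonal carcinoma cell line that leaves its pluripotent state when given retinoic acid (RA). The 4 groups were cells with a small interfering RNA against RNF20 (siRNF20) given RA, control cells (siLacZ, against a bacterial gene) given RA, siRNF20 cells given the solvent DMSO, and siLacZ cells given DMSO. RA was used at 10 µM and the exposure lasted 72 h. Each group held 2 arrays of biological duplicates, numbered GF117 and GF120, and the labels do not say what the numbers stand for. All cells were of 1 line, and the labels give neither the time between knockdown and RA nor the way the RNA was primed for labelling.

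These genes lie in clusters and are transcribed in S phase, when the cell copies its DNA. Their mRNAs end in a stem loop in place of a poly(A) tail, and the stem-loop binding protein SLBP carries them through processing, translation and decay. Cells that leave the cycle stop making them and turn to variant histones that are made at all times. RNF20, with its partner RNF40, is the ligase that attaches ubiquitin to histone H2B, so that the H2B genes encode its substrate. The design asks what RA does, what the loss of RNF20 does, and if cells short of RNF20 answer RA in another way.

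The promoters of the H2A and H2B genes are known for an octamer motif, bound by POU2F1, beside the TATA and CCAAT boxes that all types can carry. In the RefSeq promoter table (build GRCh38.p14) 38 of the 43 genes had an entry, and the 250 bases before the start were searched on both strands for ATTTGCAT (the octamer), for TATAAA as TATA box, and for CCAAT. Matches of different motifs can share bases, and a promoter was counted for each motif it held. The octamer was found in 8 of 10 H2A and 9 of 13 H2B promoters and in 0 of the 6 H1, 5 H3 and 4 H4 promoters, against 1.66% of 27305 promoters of all genes. TATAAA was found in 26 of the 38 promoters (all genes 11.1%) and CCAAT in 36 (all genes 33.0%). A match was counted anywhere in the window, so that a TATAAA match need not be the gene's own TATA box. The genes H2AC15 and H2BC15, H2AC14 and H2BC14, and H2AC20 and H2BC21 are among 6 H2A and H2B pairs that are read away from each other and share 193 to 244 of these bases, so that their promoters are not separate sequences. The windows of 3 H2B genes that the results below turn on are printed with the motif matches in capitals on either strand. H2BC15 is the gene called with RA, and H2BC14 and H2BC21 had the lowest unadjusted p among H2B genes with siRNF20.
H2BC15, chr6:27838319-27838568, plus strand: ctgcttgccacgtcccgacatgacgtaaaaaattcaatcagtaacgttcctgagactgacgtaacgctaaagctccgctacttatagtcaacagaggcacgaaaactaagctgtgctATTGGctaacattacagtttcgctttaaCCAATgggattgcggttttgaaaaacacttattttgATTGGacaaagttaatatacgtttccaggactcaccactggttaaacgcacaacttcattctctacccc
H2BC14, chr6:27814772-27815021, plus strand: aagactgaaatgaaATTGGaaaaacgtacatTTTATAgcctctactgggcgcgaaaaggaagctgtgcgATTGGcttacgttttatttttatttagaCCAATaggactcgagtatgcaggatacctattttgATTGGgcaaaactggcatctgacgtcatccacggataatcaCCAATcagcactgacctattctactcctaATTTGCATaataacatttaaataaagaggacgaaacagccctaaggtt
H2BC21, chr1:149886683-149886932, minus strand: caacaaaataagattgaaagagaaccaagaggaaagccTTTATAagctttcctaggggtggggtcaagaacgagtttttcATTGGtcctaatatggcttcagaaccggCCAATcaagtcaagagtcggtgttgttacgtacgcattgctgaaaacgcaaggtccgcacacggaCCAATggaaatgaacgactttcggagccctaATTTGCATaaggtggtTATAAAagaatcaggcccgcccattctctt
The H2BC14 and H2BC21 windows hold the octamer, which begins 48 and 46 bases before the start. The only TATAAA match of H2BC14 lies 219 bases before its start. It stands on the bases shared with H2AC14, 31 bases before the start of that gene. The H2BC15 window holds CCAAT matches but neither ATTTGCAT nor TATAAA. Such a match is a stretch of letters and was not tested for binding.

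The GF117 array of RA siLacZ cells stood apart from the rest. Its gene values correlated at r = 0.0780 to 0.185 with those of the other 7 arrays, which correlated at 0.908 to 0.974 with each other, and 25 of the 35 histone genes were lower on it than on each of the 7 others, as were 60% of all genes. It was therefore left out below, which leaves 1 array in the RA siLacZ group, and the medians that use this group are also given with all 8 arrays. RNF20 itself had a log2 intensity of 6.27 and 5.89 in RA siRNF20 cells, against 8.10 on the RA siLacZ array. In DMSO it was 6.48 and 5.98 in siRNF20 cells, against 8.24 and 8.09 in siLacZ cells. The log2 difference was -1.94 (SE 0.23, limma adjusted p = 0.237, n = 2 and 2) in DMSO and -2.02 (SE 0.29, adjusted p = 0.110, n = 2 and 1) in RA, neither past the threshold over 18732 genes. With the number as a replicate block both were called (-1.94, adjusted p = 0.00152, and -2.19, adjusted p = 0.00287), and so was the RA difference in a fit on the 3 RA arrays (adjusted p = 0.0217). Pluripotency markers had a median log2 intensity of 8.25 and 8.33 in RA siRNF20 cells and 7.93 in RA siLacZ cells, against 9.66 and 9.69 in DMSO siRNF20 cells and 9.68 and 9.59 in DMSO siLacZ cells. Of the 12 markers 9 were lower with RA in siRNF20 cells and 3 higher, and in siLacZ cells 10 were lower and 2 higher. Of all 18732 genes 10049 and 10361 were lower. NANOG fell most of the 12, with a log2 difference of -2.76 in siRNF20 cells and -3.82 in siLacZ cells.

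Most histone genes did not pass the test with RA. In siRNF20 cells 0 of 35 passed at an adjusted p under 0.05, where 3.92% of all genes did (limma, Benjamini-Hochberg over 18732 genes), and 1 had an unadjusted p under 0.05. In siLacZ cells 1 of 35 passed, H2BC15, against 3.91% of all genes. The median log2 difference of the 35 genes was 0.18 in siRNF20 cells and 0.02 in siLacZ cells, with all genes at -0.03 and -0.05. Leaving out 1 array gave -0.12 (without the GF117 array of RA siRNF20 cells) to 0.33 in siRNF20 cells and -0.23 (without the GF120 array of DMSO siLacZ cells) to 0.17 in siLacZ cells, where the median with all 8 arrays was -0.79. The standard errors of single histone genes ran from 0.11 to 1.01 in siRNF20 cells and from 0.13 to 1.24 in siLacZ cells, with medians of 0.29 and 0.36. In cells measured in bulk, a smaller share of cells in S phase and less histone mRNA per such cell cannot be told apart.

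**Figure D1:**
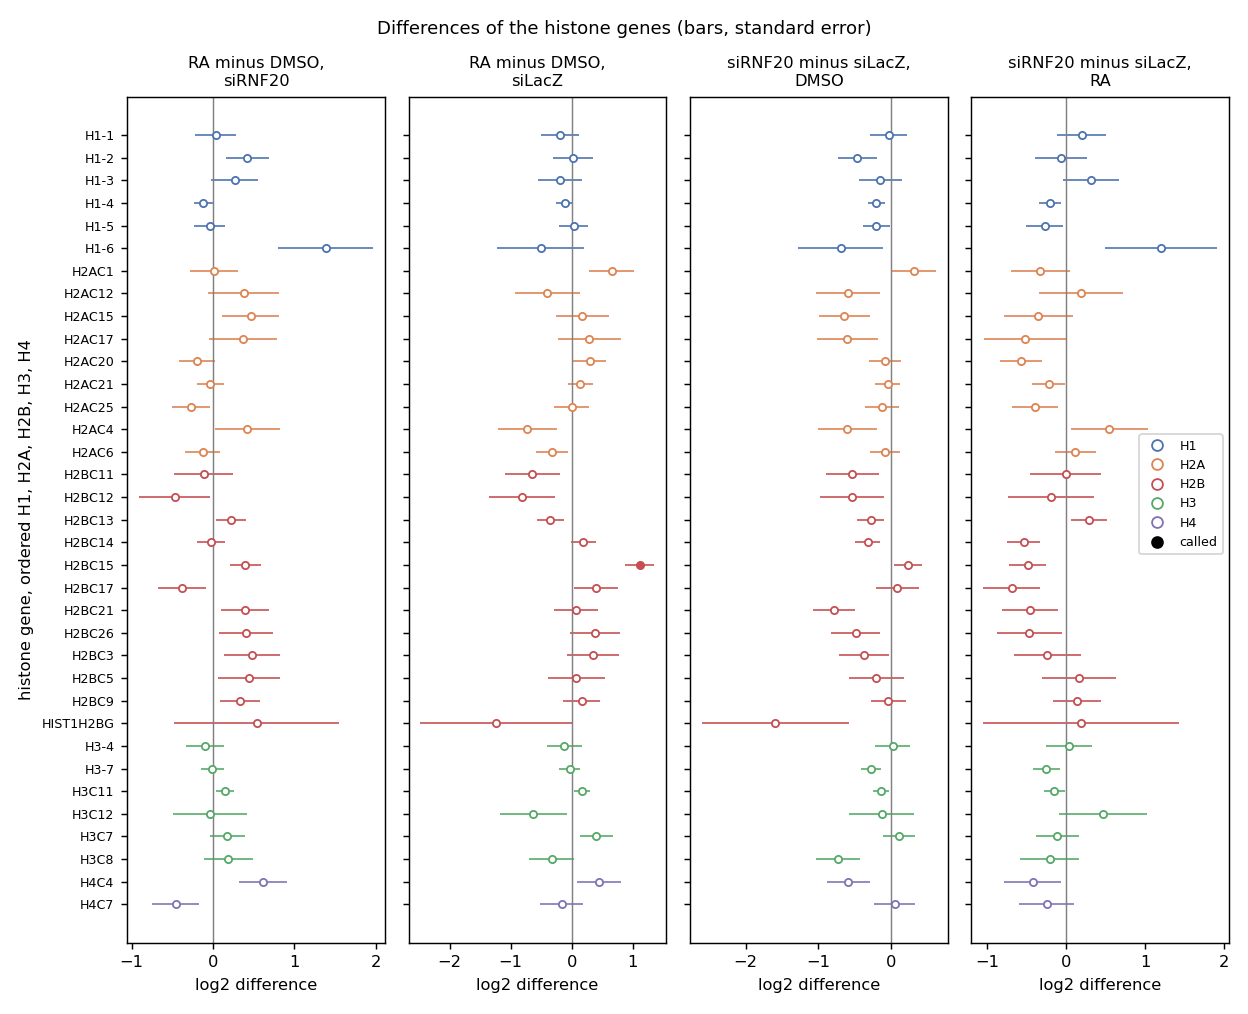
Log2 differences (horizontal axis) of the 35 histone genes in the 4 pairwise comparisons, with RA minus DMSO in siRNF20 and in siLacZ cells on the left and siRNF20 minus siLacZ in DMSO and in RA on the right; bars are limma standard errors, colours are histone types and a filled point was called. The only filled point is H2BC15 with RA in siLacZ cells, at 1.12. For siRNF20 in DMSO 29 of 35 points lie below 0, where 9738 of all 18732 genes do.

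H2BC15 encodes a histone H2B protein. Its log2 intensity was 8.65 on the RA siLacZ array, against 7.38 and 7.68 on the DMSO siLacZ arrays. In siRNF20 cells it was 8.21 and 8.12 with RA, against 7.94 and 7.59 with DMSO. In both backgrounds every RA value lay above every DMSO value. The log2 difference was 1.12 in siLacZ cells (2.17-fold, SE 0.24, adjusted p = 0.0331, 95% confidence interval 0.58 to 1.66, n = 1 and 2). The error takes the spread from the other groups, and the lone RA siLacZ array is assumed to vary like them, so that it holds no replicate spread of RA siLacZ cells. It was 0.40 in siRNF20 cells (SE 0.20, adjusted p = 0.383, n = 2 and 2). The RA response in siRNF20 cells minus that in siLacZ cells was -0.72 (SE 0.31, unadjusted p = 0.0431, adjusted p = 0.999). Leaving out either DMSO siLacZ array ended the call (0.97 and adjusted p = 0.164 without GF117, 1.27 and adjusted p = 0.0654 without GF120), and over all alternatives its adjusted p ran from 0.00643 to 0.651. On the GF117 RA siLacZ array the gene read 7.32, and with all 8 arrays the difference was 0.45.

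The gene value of H2BC15 rests on 3 array rows, and row 3, of middle brightness on every array, sets the median. That row differed by 1.12 between RA and DMSO in siLacZ cells, and the others by 0.57 and 0.52. Row 4, left out as dim, differed by -0.24. With the mean over rows in place of the median the difference was 0.74 (adjusted p = 0.170). In siRNF20 cells row 1 of H2BC15 read 6.64 and 5.77 with RA, against 6.39 and 5.71 with DMSO. Row 2 read 10.30 and 9.90 with RA, against 10.06 and 9.79 with DMSO, so that both rows overlapped there. H2AC15, the H2A gene on the other side of the shared promoter, had 6.60 on the RA siLacZ array, against 6.60 and 6.26 on the DMSO siLacZ arrays, so that its RA value equalled the higher DMSO value to 2 decimals (0.18, SE 0.43).

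**Figure D2:**
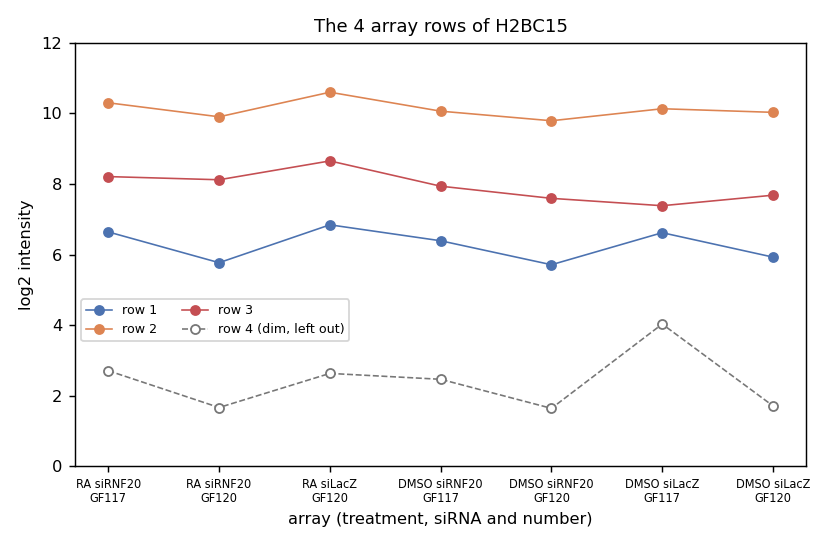
Log2 intensity (vertical axis) of each of the 4 rows of H2BC15 on the 7 arrays (horizontal axis), with the dim row that was left out drawn open and dashed. Row 3, which sets the gene value, stands at 8.65 on the RA siLacZ array, against 7.38 and 7.68 on the DMSO siLacZ arrays, while rows 1 and 2 differ by 0.57 and 0.52.

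By type, the median difference with RA in siRNF20 cells was 0.15 for H1, 0.01 for H2A, 0.36 for H2B, 0.07 for H3 and 0.08 for H4. In siLacZ cells it was -0.15, 0.14, 0.12, -0.07 and 0.14 in the same order, and with all 8 arrays -0.56, -1.10, -0.93, -1.01 and -0.14. Of the 12 H2B genes 8 had a positive difference in siRNF20 cells and 8 of 12 in siLacZ cells, where 8683 and 8371 of all 18732 genes did. Leaving out 1 array gave an H2B median of -0.065 to 0.50 in siRNF20 cells. The largest difference in siRNF20 cells was that of H1-6, the linker histone of the testis. It read 6.11 and 4.93 in RA siRNF20 cells, against 5.04 and 3.22 in DMSO siRNF20 cells, and these values overlapped (1.39, SE 0.58, adjusted p = 0.291). With the number as a replicate block H1-6 was called there (1.39, adjusted p = 0.0232). In siLacZ cells it read 4.32 with RA, against 5.07 and 4.59 with DMSO. H4C4, an H4 gene, read 8.87 and 7.87 in RA siRNF20 cells, against 7.95 and 7.57 in DMSO siRNF20 cells (0.61, SE 0.30, adjusted p = 0.378). Both RA arrays decide this value: with GF117 as the only RA array H4C4 was called (1.11, adjusted p = 0.0300), and with GF120 as the only one it differed by 0.11 (adjusted p = 0.878). H3C11, an H3 gene, stayed within a narrow span, at 11.42 and 11.26 in RA siRNF20 cells, against 11.09 and 11.28 in DMSO siRNF20 cells.

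Loss of RNF20 was not followed by a called change in any histone gene. In DMSO 0 of 35 passed and 0% of all genes; 2 histone genes and 519 of all genes had an unadjusted p under 0.05. In RA 0 of 35 passed, against 0.0107% of all genes, and 1 had an unadjusted p under 0.05. The values nonetheless leaned to 1 side: 29 of 35 genes had a lower mean with siRNF20 in DMSO and 23 of 35 in RA. Of all 18732 genes 9738 and 9537 had a lower mean. The median log2 difference was -0.20 in DMSO and -0.21 in RA, with all genes at -0.01 in both. Leaving out 1 array gave -0.47 to -0.076 in DMSO (without the GF120 and the GF117 siLacZ array) and -0.35 to 0.073 in RA (without the GF117 and the GF120 siRNF20 array), and with all 8 arrays the RA median was 0.77, so that its direction rests on single arrays. In 10 of 35 genes both siRNF20 arrays lay below both siLacZ arrays in DMSO, where 15.6% of all genes did so. These were H1-4, H2AC15, H2BC3, H2BC11, H2BC14, H2BC21, H3-7, H3C8, H3C11 and H4C4, of which H2BC11 is named because its values were seen.

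H2BC21, an H2B gene outside the main histone cluster, had the lowest unadjusted p in DMSO. It read 7.18 and 6.85 in DMSO siRNF20 cells, against 8.29 and 7.32 in DMSO siLacZ cells. The siRNF20 values lay below both siLacZ values, by -0.79 on average (SE 0.29, unadjusted p = 0.0245, adjusted p = 1.000). In RA it read 7.34 and 7.48 in siRNF20 cells, against 7.87 in siLacZ cells. H3C8, an H3 gene on 1 row, read 6.82 and 6.34 in DMSO siRNF20 cells, against 7.37 and 7.24 in DMSO siLacZ cells (-0.73, SE 0.30, unadjusted p = 0.0381, adjusted p = 1.000). H2BC14 read 10.85 and 10.53 in RA siRNF20 cells, against 11.23 in RA siLacZ cells. Its difference in RA was -0.54 (SE 0.21, unadjusted p = 0.0283, adjusted p = 0.586), and it was called with the number as a replicate block (-0.70, adjusted p = 0.0304). With the GF117 array in place of GF120 as the RA siLacZ array it was called in the other direction (3.15, adjusted p = 6.44e-07). In DMSO it read 10.80 and 10.64 in siRNF20 cells, against 11.28 and 10.80 in siLacZ cells.

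**Figure D3:**
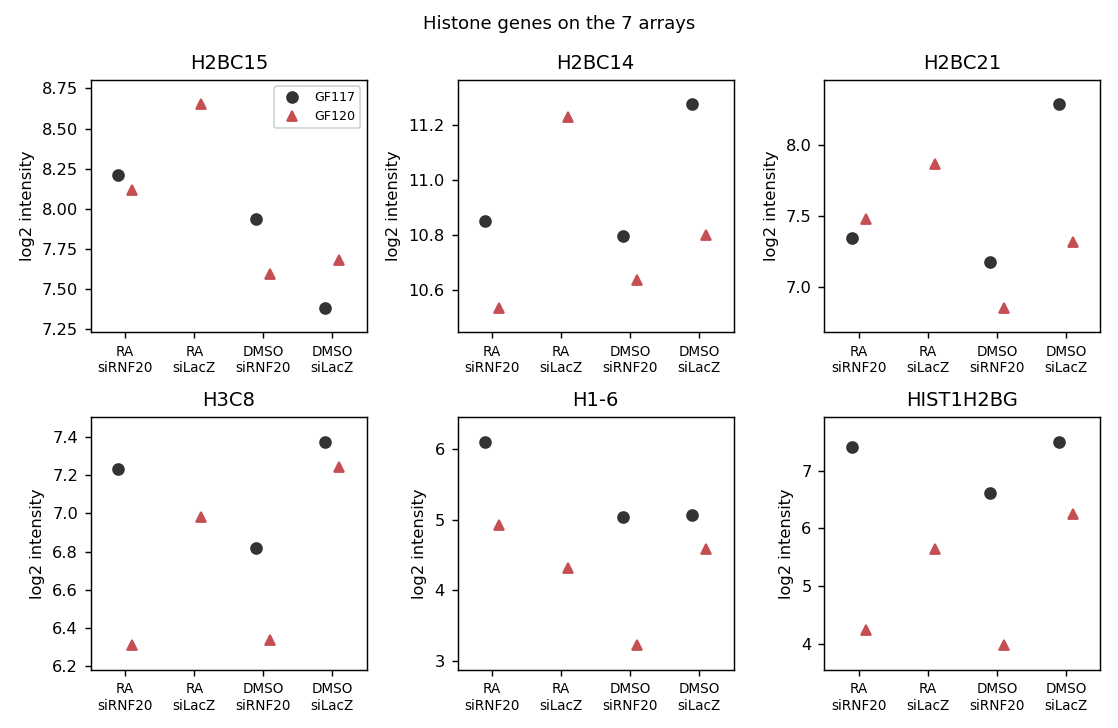
Log2 intensity (vertical axes, each on its own scale) of H2BC15, H2BC14, H2BC21, H3C8, H1-6 and HIST1H2BG in the 4 groups, with circles for GF117 and triangles for GF120. H2BC15 is highest on the RA siLacZ array at 8.65, H2BC21 and H3C8 have both DMSO siRNF20 values below both DMSO siLacZ values, and HIST1H2BG spans 3.97 to 7.51 with the GF117 arrays on top.

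Split into pairs of arrays with the same number, the same values leaned the same way. The DMSO differences of a gene within GF117 and GF120 average to its DMSO difference above, so that they add no separate support. In DMSO the median histone difference was -0.29 within GF117 (29 of 35 lower) and -0.13 within GF120 (27 of 35), and in RA within GF120 -0.35 (30 of 35). Of all genes 50.1%, 53.5% and 54.6% were lower in that order. These 3 differences share no array with each other, but all use arrays of the comparisons above. In 22 of 35 genes the siRNF20 array was the lower one in all 3, where 20.5% of all genes did so; they were 4 of 6 H1, 5 of 9 H2A, 8 of 12 H2B, 4 of 6 H3 and 1 of 2 H4 genes. The medians of H2A and H2B were -0.43 and -0.45 in DMSO within GF117, -0.32 and -0.17 in DMSO within GF120, and -0.45 and -0.61 in RA within GF120, and those of the 2 H4 genes -0.11, -0.43 and -0.56 in the same order. The medians of H1 were -0.19, -0.16 and -0.11 and those of H3 -0.20, -0.06 and -0.22. In the fit of group means the H1 median for siRNF20 in RA was 0.07, with 3 genes higher and 3 lower. H2BC15 was among the exceptions: it was higher with siRNF20 in DMSO within GF117 (0.55) and lower in RA within GF120 (-0.53). The 24 measured genes of G2 and M phase had medians of 0.02, -0.16 and -0.35 over the same 3 differences, and so were below 0 only within GF120. The 28 measured genes of S phase had medians of 0.01, 0.10 and 0.10, none of them below 0. The part of these 2 lists in the histone values was not tested.

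The response to RA did not differ by a called amount in any histone gene when RNF20 was depleted. In the difference between the RA responses 0 of 35 passed and 0% of all genes; 1 histone gene and 737 of all genes had an unadjusted p under 0.05. The median difference was 0.16 over the 35 genes and 0.01 over all genes. It was 1.14 with all 8 arrays, and leaving out 1 array gave -0.10 (without the GF117 RA siRNF20 array) to 0.43. By type it was 0.31 for H1, 0.08 for H2A, 0.25 for H2B, 0.02 for H3 and -0.06 for H4. The comparisons of this design share arrays: RA in siLacZ cells and siRNF20 in RA both rest on the 1 RA siLacZ array, and RA in siLacZ cells and siRNF20 in DMSO both rest on the DMSO siLacZ arrays.

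More histone genes were called between the numbers GF117 and GF120 than in the 5 comparisons above. This comparison was added after the values were seen. The median standard error of the 35 genes was 0.16 in its fit and 0.29 to 0.46 in the 5 others, so that the counts are not on an equal footing. In RA siRNF20 cells 32 of 35 genes were higher on the GF117 array than on the GF120 array, in DMSO siRNF20 cells 30 and in DMSO siLacZ cells 29. Of all genes 58.6%, 59.6% and 56.6% were higher in that order. The median differences were 0.57, 0.34 and 0.39 in that order, with all genes at 0.08, 0.07 and 0.06. In 24 of 35 genes GF117 was higher in all 3 groups, where 30.1% of all genes were; all 6 H1 genes, 6 of 9 H2A, 9 of 12 H2B, 3 of 6 H3 and 0 of 2 H4 genes were among them. In a fit with the number beside the groups, 12 of 35 passed, all of them higher in GF117, where 2.82% of all genes passed as higher. Without the filter on dim rows 5 were called: H1-3, H2AC12, H2BC5, HIST1H2BG and H4C13, the last a gene that the filter had left out. The count was 0 without the intensity trend of the variance and 0 with all 8 arrays, and leaving out 1 array gave 8 to 15.

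**Figure D4:**
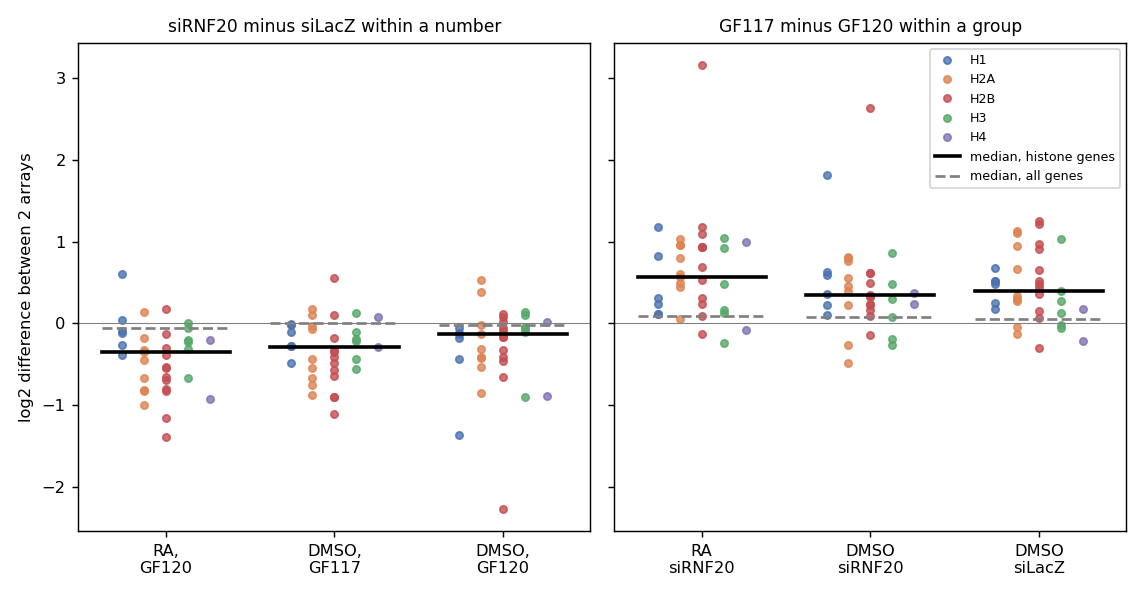
Log2 differences between 2 arrays (vertical axis) for each of the 35 histone genes, with siRNF20 minus siLacZ within a number on the left and GF117 minus GF120 within a group on the right; points are genes coloured by type, solid lines the histone medians and dashed lines the medians of all genes. On the right the histone medians of 0.57, 0.34 and 0.39 lie above those of all genes (0.08, 0.07 and 0.06), and on the left they lie below, at -0.35, -0.29 and -0.13.

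The 12 genes were H1-3, H1-5, H1-6, H2AC4, H2AC6, H2AC12, H2AC15, H2AC17, H2BC5, H2BC12, H3C12 and HIST1H2BG, of which H2AC12, H2BC5 and H2BC12 are named because their values were seen. HIST1H2BG, an H2B gene on 1 row, differed most. It read 7.41 on the GF117 and 4.25 on the GF120 array of RA siRNF20 cells, 6.61 and 3.97 in DMSO siRNF20 cells, and 7.51 and 6.25 in DMSO siLacZ cells. Its difference was 2.35 (SE 0.28, adjusted p = 0.0159), and its lowest value lies at the level of the median row of the array, a log2 intensity of 3.97. H2AC12, an H2A gene, read 7.78 and 6.74 in RA siRNF20 cells, 7.28 and 6.48 in DMSO siRNF20 cells, and 8.04 and 6.91 in DMSO siLacZ cells (0.99, SE 0.13, adjusted p = 0.0188). H1-3, a linker histone gene, read 10.13 and 9.30, 9.74 and 9.15, and 9.85 and 9.34 on the GF117 and GF120 arrays of the same groups (0.64, SE 0.10, adjusted p = 0.0202). The other 9 differed by 0.37 (H1-5) to 1.16 (H1-6).

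**Figure D5:**
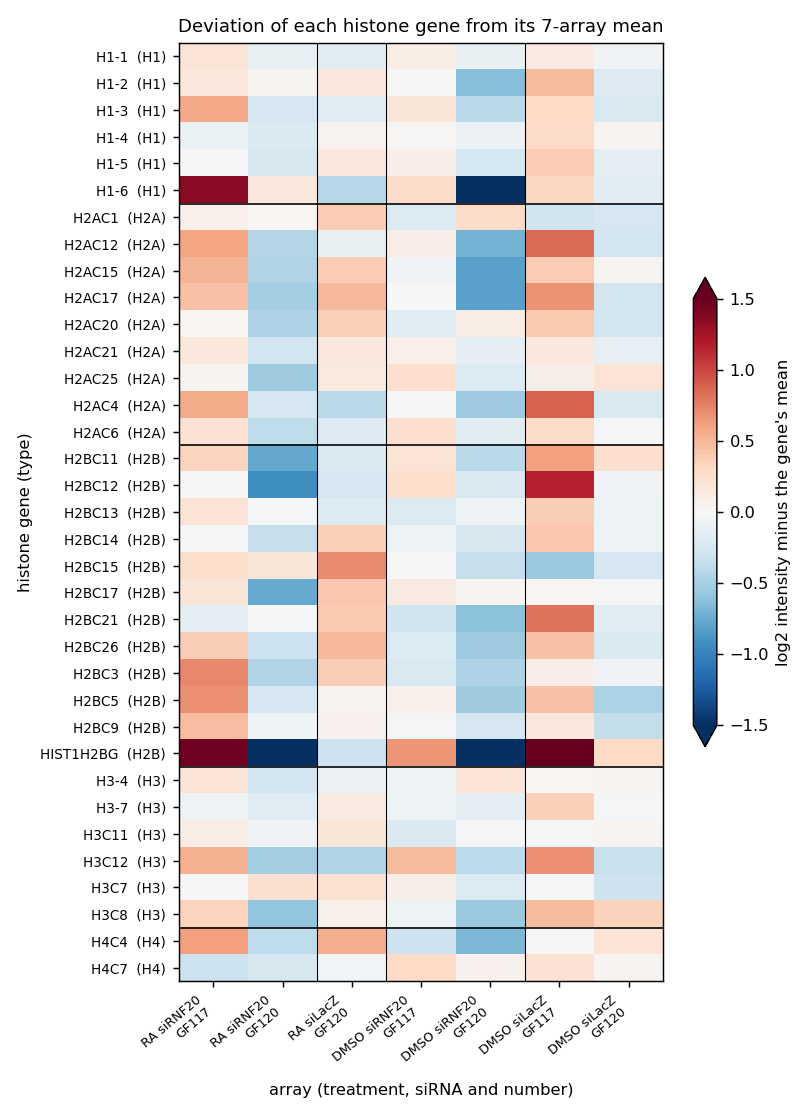
Log2 intensity of each of the 35 histone genes (rows, ordered by type) on the 7 arrays (columns) as the deviation from the gene's own mean, red above and blue below, with the colour scale ending at -1.5 and 1.5. The GF120 arrays of siRNF20 cells are mostly blue and the GF117 array of DMSO siLacZ cells mostly red, with median deviations of -0.29 (RA), -0.26 (DMSO) and 0.36.

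Genes of G2 and M phase differed between the numbers as well, while the median of the S phase genes stayed near that of all genes. The counts of these lists stand against the 2.82% of all genes called as higher in GF117, and their medians against 0.07 over all genes. Among 24 genes of G2 and M phase 5 were higher in GF117 (CENPE by 0.96, CKS2 by 0.77, HMMR by 0.68 and BUB1 by 0.48 among them), with a median of 0.26. Among 28 genes of S phase RRM2 (0.56) and SLBP (0.55) were higher, with a median of 0.05. SLBP and the nucleotidyltransferase gene TENT4B (0.57) were the 2 called among 29 genes that transcribe, process or degrade histone mRNA. Reference genes of metabolism and the ribosome had a median of 0.18 and 0 of 15 called. What the numbers stand for is not stated, and a difference in cell cycle, in culture or in RNA handling was not tested.

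Rows that several histone symbols share showed the same pattern, and they hold most of the H4 signal. Of 127 such rows, 51 list H4 genes alone, 36 H2A, 10 H2B and 6 H3 genes. Others list more than 1 type, with 17 rows of H2A and H3, 4 of H2B and H3 and 1 of H2A and H2B symbols. On the 49 H4 rows brighter than the median row the median log2 intensity was 8.54 and 7.21 in RA siRNF20 cells (GF117 and GF120) and 7.63 on the RA siLacZ array, against 7.98 and 7.09 in DMSO siRNF20 cells and 8.82 and 7.65 in DMSO siLacZ cells. GF117 was thus above GF120 in each group with both arrays. On the 36 H2A rows it was 10.39 and 9.51 in RA siRNF20 cells and 9.77 on the RA siLacZ array, against 9.80 and 9.54 in DMSO siRNF20 cells and 10.08 and 9.93 in DMSO siLacZ cells. The median row difference of siRNF20 minus siLacZ was below 0 on H2A, H2B, H3 and H4 rows alike in DMSO within GF117 (-0.20 to -0.42), in DMSO within GF120 (-0.04 to -0.58) and in RA within GF120 (-0.27 to -0.48). These rows were not tested, and a row cannot be credited to 1 gene.

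Lists of genes that work with the histones are counted against 3.92% of all genes called with RA in siRNF20 cells, 3.91% in siLacZ cells, and 0% (DMSO) and 0.0107% (RA) with siRNF20. Of 13 variant and replacement histones 11 were measured. In siLacZ cells with RA H2AZ1, the variant H2A.Z, fell by 1.23 (SE 0.19, adjusted p = 0.00729) and MACROH2A2, a macroH2A variant, rose by 1.16 (SE 0.21, adjusted p = 0.0155); 0 passed in the other 4 comparisons. Of 29 measured genes that transcribe, process or degrade histone mRNA 0 passed with RA or siRNF20, and of 24 histone chaperones and acetyltransferases of new histones 0 passed. With RA in siLacZ cells PCNA, the clamp of DNA polymerase, fell by 1.01 and RFC4, part of its loader, fell by 0.92 among 28 S phase genes. PTTG1, securin, rose by 1.42 among 24 genes of G2 and M phase. In siRNF20 cells with RA 0 of either list passed. The calls with RA in siLacZ cells, those of H2AZ1 and MACROH2A2 included, rest on 1 RA array. A difference between the backgrounds cannot be read from these counts. Among 24 measured genes that add or remove ubiquitin on H2B, USP44 fell with RA, by 1.11 in siRNF20 cells and by 1.22 in siLacZ cells. These lists were drawn up with earlier results of the same arrays known.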

How the data were processed

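Affymetrix exon arrays of 8 RNA samples were analysed, 2 in each of 4 groups taken from the titles. The deposited values are linear intensities, 1 for each array row and array; the authors' steps from scan to value (background, normalization) are not given in the sources used here. Upper quartiles lay between 54.9 and 55.1 on 7 arrays and at 59.8 on the RA siLacZ array of GF117. Precision is limited by how few arrays there are. With 2 arrays against 2 an exact permutation test cannot go below p = 0.333.

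Rows were named through the platform annotation: of 369498 listed rows 354600 had 1 symbol and 14898 several. Of 19497 symbols 16426 were current, 2950 were updated and 121 were kept, which gave 19426 genes; 41 of the 43 histone genes had a current name. Intensities were taken to log2 with no further normalization. Only rows with a mean brighter than that of the median row were kept, and their median per gene was used, for 18732 genes on 7 arrays. limma 3.58.1 in R 4.3.3 fitted the 4 group means with an intensity trend. P-values come from limma's two-sided test, were adjusted by Benjamini-Hochberg over all genes tested, and genes were called below 0.05. The fit was also run on simulated arrays with independent noise. These lack the correlation between arrays of the same number that is given below, so that they cannot show how the fit behaves with it. Histone genes share sequence, so that signal of near-identical copies can enter a row.

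The members, lists, comparisons and alternatives were chosen with earlier results of these data known. Named were RNF20, histone genes called in the 5 comparisons between groups, the 4 brightest of each type, the 2 of each type with the largest difference in each pairwise comparison, and called members of the other lists, at most 4 per list and comparison. The numbers GF117 and GF120 were not treated as a pairing. Deviations from the group means correlated at 0.286, 0.299 and 0.360 between arrays of the same number among the groups other than RA siLacZ and at -0.0705, -0.169 and -0.390 with that group, and the labels do not say what the numbers stand for. The p-values measure the spread between these arrays. Figures were drawn with matplotlib 3.10.9 in Python 3.11.15.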

Additional observations from a re-analysis of the deposited data

Results flagged for a closer look

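H2BC13, an H2B gene, read higher with RA in siRNF20 cells and lower with RA in siLacZ cells, by small gaps. It read 9.31 and 9.08 in RA siRNF20 cells, against 8.90 and 9.05 in DMSO siRNF20 cells, and 8.91 on the RA siLacZ array, against 9.47 and 9.03 on the DMSO siLacZ arrays. The RA response in siRNF20 cells minus that in siLacZ cells was 0.57 on the log2 scale (SE 0.29, limma unadjusted p = 0.0795, adjusted p = 0.999), and limma did not call it. It was noted because every RA value lay above every DMSO value in siRNF20 cells and below every DMSO value in siLacZ cells. The nearest RA and DMSO values were 9.08 and 9.05 in siRNF20 cells and 8.91 and 9.03 in siLacZ cells. The siLacZ response rests on 1 RA array. No other histone gene had this pattern, but its share over all genes was not counted, so that it cannot be read as particular to H2BC13.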

How the results depend on the processing

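The median histone difference for siRNF20 in DMSO stayed below 0 under every alternative run, and 0 histone genes were called there under any of them. That comparison rests on the DMSO arrays alone. Alternatives that change only the RA arrays can move its median only through the row filter. Dropping the trend, adding the block or fitting the compared groups alone cannot move it, so that these alternatives do not test its direction. Of the values that summarise a comparison, 590 of 692 kept within the limits used. Of the values of named histone genes 2065 of 2179 stayed on their side of the threshold, 47 lost the call, 40 gained it and 27 changed sign with a call on either side, and 188 differed in sign in all. Each group holds 1 or 2 arrays, genes with 1 row rest on that row alone, and only 2 H4 genes were tested.

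For RA in siLacZ cells the median with all 8 arrays was -0.79 (-0.56 for H1, -1.10 for H2A, -0.93 for H2B, -1.01 for H3 and -0.14 for H4). For siRNF20 in RA the median with all 8 arrays was 0.77 (0.87 for H1, 0.78 for H2A, 0.92 for H2B, 0.60 for H3 and -0.056 for H4). For the difference between the RA responses the median with all 8 arrays was 1.14 (1.04 for H1, 1.13 for H2A, 1.29 for H2B, 1.10 for H3 and 0.22 for H4). Members called for RA in siLacZ cells then numbered 0, and the other lists held 0 called genes for RA in siRNF20 and in siLacZ cells. Between the numbers 0 members were called and their median was -0.019, with H1-5 at -0.64, H2AC17 at -0.13 and H2AC6 at -0.45.

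Had the GF117 array stood for the RA siLacZ group in place of GF120, 24 histone genes would have been called with RA in siLacZ cells, 24 with siRNF20 under RA and 24 in the difference, and 170, 171 and 162 genes of the other lists. The median for RA in siLacZ cells was then -1.62 (-0.95 for H1, -2.34 for H2A, -1.88 for H2B, -1.001 for H3 and -0.42 for H4). The median for siRNF20 in RA was then 1.64 (1.31 for H1, 1.95 for H2A, 1.90 for H2B, 0.69 for H3 and 0.22 for H4). The median for the difference between the RA responses was then 2.07 (1.56 for H1, 2.07 for H2A, 2.20 for H2B, 1.05 for H3 and 0.50 for H4). For RA in siLacZ cells the sign changed with a call on either side in H1-5 (-3.66), H2AC17 (-2.94), H2AC20 (-2.49), H2AC21 (-3.07), H2AC25 (-2.34), H2BC14 (-3.49), H2BC15 (-0.22), H2BC21 (-0.95), H2BC3 (-1.68), H2BC9 (-1.35), H3C11 (-5.15) and H4C4 (-1.62). For siRNF20 in RA the sign changed with a call on either side in H1-4 (2.22), H1-5 (3.42), H2AC17 (2.71), H2AC20 (2.22), H2AC21 (2.98), H2AC25 (1.95), H2BC14 (3.15), H2BC15 (0.85), H2BC3 (1.78), H3C11 (5.17), H3C8 (1.42) and H4C4 (1.64). That array stands apart from all others, as given above.

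Members called for RA in siLacZ cells numbered 0 with the mean over rows, 0 without the filter on dim rows and 0 without the intensity trend, which left 7 genes of the other lists. Without the filter the medians for RA in siLacZ cells were -0.40 (H2A), -0.33 (H3) and 0.62 (H4), for siRNF20 in DMSO -0.59 (H2A) and 0.42 (H4), for siRNF20 in RA 0.10 (H2A), and for the difference 0.52 (H3) and -0.61 (H4), and between the numbers 5 members were called, against 0 without the trend. With rows above the upper quartile they were 0.61 (H4, RA in siRNF20), -0.26 (H2B) and 0.45 (H4, RA in siLacZ), -0.59 (H4, siRNF20 in DMSO) and 0.16 (H4, difference).

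With the number as a replicate block 1 histone gene was called for RA in siRNF20 cells (H1-6), 1 for RA in siLacZ cells (H2BC15) and 1 for siRNF20 in RA (H2BC14). The other lists then held 26 called genes for RA in siLacZ cells, 8 for siRNF20 in RA and 1 for siRNF20 in DMSO, RNF20 stood at -1.94 in DMSO and -2.19 in RA, and the H2A median of the difference was -0.33. The numbers are not known to pair the samples, and the block changed no other call of a histone gene. On the groups compared alone RNF20 was called in RA (-2.02) and was the 1 gene called in the other lists there.

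Leaving out each of 6 arrays in turn moved some counts and medians: RA in siRNF20 cells gave -0.15 to 0.56 for H4, -0.12 to 0.33 for the median of all, -0.065 to 0.50 for H2B, -0.17 to 0.19 for H3 and 0 to 1 called, RA in siLacZ cells gave 0 to 1 called and -0.38 to 0.15 for H4. siRNF20 in DMSO gave -0.87 to -0.12 for H4, siRNF20 in RA gave -0.56 to 0.067 for H4, -0.61 to 0.31 for H2B and -0.22 to 0.090 for H3, and the difference gave -0.13 to 0.57 for H2B, -0.29 to 0.94 for H4 and -0.40 to 0.50 for H2A. The other lists held 7 to 21 called genes for RA in siLacZ cells. For the median of all histone genes it gave -0.23 to 0.17 for RA in siLacZ cells, -0.47 to -0.076 for siRNF20 in DMSO, -0.35 to 0.073 for siRNF20 in RA and -0.10 to 0.43 for the difference. The cause of these changes was not tested. The comparison of the numbers was chosen after seeing the data.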

Other observations

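The GF117 RA siLacZ array, left out of the comparisons, gave lower values for most histone genes. Over the same rows the median log2 intensity of the 35 genes was 6.23 on it, against 6.48 to 7.51 on the 7 other arrays. H3C11, an H3 gene on 1 row, read 6.17 on it and 11.09 to 11.49 on the others, H1-4 read 8.98 and 11.14 to 11.64, and H2AC20 read 8.88 and 10.84 to 11.70. H1-1 read higher on it, at 6.71 against 5.18 to 5.53. Reference genes had a median of 7.85 on it, against 10.34 to 10.85 on the other arrays.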
